A study of Rattus norvegicus with 2 samples.

Results

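Mt1 and Mt2A, the metallothionein genes of the liver, were followed on 2 oligonucleotide arrays of rat liver total RNA, 1 for a low-fat and 1 for a high-fat diet. They were chosen because both had lower signals on the high-fat array, so the size and direction of that difference are given as a description with no test. Each member had 1 probe set that carried its symbol alone, among 12783 such probe sets for 10411 genes. Both groups were SD rats, aged 4 weeks per the labels, that received an AIN93G-based purified diet over 9 weeks. The diets were labelled as low or high in fat. An age of 4 weeks is less than the feeding time, so it is not read as the age at sampling. The sources used here do not give the fat source, the sex, the feeding state or how many rats were behind an RNA. With 1 array per diet there is no replicate check, every value describes these 2 arrays, and their number limits the precision.

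Metallothioneins are small cytosolic proteins rich in cysteine that hold zinc and copper in clusters of thiolates and also bind cadmium and other toxic metals. The liver is a main site of their production. Their genes are known to be switched on by zinc through the metal-responsive factor MTF-1, which binds metal response elements before the start of transcription, and also by glucocorticoids, by interleukin-6 acting through STAT3, and by oxidants.

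In the RefSeq gene table of assembly GRCr8, Mt1, Mt2A, Mt3 and Mt4 are neighbours in that order on chromosome 19. The 250 bases before the start of both members are shown for the metal response elements for which these genes are known. Whether these elements have a part in the array values was not tested. The bases are RefSeq's, build GRCr8, written 5' to 3' on the gene's strand, with matches to the metal response element core in capitals. The core was searched as TGCACNC and TGCGCNC on both strands, so a match on the other strand reads as GNGTGCA or GNGCGCA. Mt1 lies at chr19:10832976-10833225 on the minus strand, and Mt2A at chr19:10838709-10838958, also minus.
Mt1: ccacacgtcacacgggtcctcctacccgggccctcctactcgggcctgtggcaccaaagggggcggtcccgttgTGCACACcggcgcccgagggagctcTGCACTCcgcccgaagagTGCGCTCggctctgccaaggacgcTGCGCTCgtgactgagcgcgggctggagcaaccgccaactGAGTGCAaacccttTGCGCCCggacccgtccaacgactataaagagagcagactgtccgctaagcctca
Mt2A: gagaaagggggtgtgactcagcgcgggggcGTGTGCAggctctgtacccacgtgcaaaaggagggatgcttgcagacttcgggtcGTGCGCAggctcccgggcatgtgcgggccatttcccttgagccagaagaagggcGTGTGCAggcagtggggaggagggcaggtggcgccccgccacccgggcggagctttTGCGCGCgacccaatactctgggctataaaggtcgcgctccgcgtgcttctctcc

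The Mt1 window held 6 core matches, 5 on the gene's strand and 1 on the other, from 176 to 49 bases before the start. Of 33469 promoter entries of the same length, 9 (0.0269%) held 6 or more, Mt1 included, and Nckap5 among them has several entries. The Mt1 and Mt2A windows were 66.4% and 66% G or C, against a median of 51.2% over entries. The counts were not matched for this. The Mt2A window held 4, of which 3 lay on the other strand, between 220 and 49 bases before the start, and 89 entries (0.266%) held that many or more. Mt3, the metallothionein known from brain, had 3 matches, and Mt4, known from squamous epithelium, had 1. At least 1 match was found in 20.6% of all entries. Both members also held 1 match to the antioxidant response element, searched as TGACNNNGC on both strands. At least 1 such match was found in 10.1% of entries, and neither Mt3 nor Mt4 held one. It did not overlap a metal response element core in either member. A TATA box, searched as TATAAA on both strands, lay 32 to 27 bases before the start in Mt1 and 31 to 26 in Mt2A, and 12.9% of entries held that motif. The full palindromic glucocorticoid response element (0.012% of entries) and the STAT element TTCNNNGAA (7.67%) had no match in these windows, both strands searched. Such matches describe letters in the window and were not shown to be bound.

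**Figure D1:**
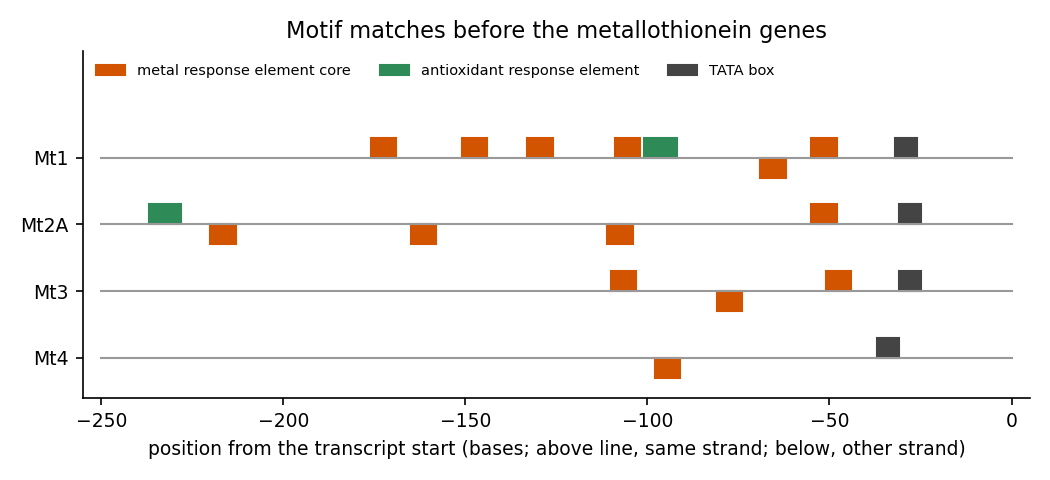
Motif matches in the 250 bases before each metallothionein gene, by distance from the transcript start in bases, with matches on the gene's strand above the line and those on the other strand below it. Mt1 has 6 metal response element cores, Mt2A has 4, Mt3 has 3 and Mt4 has 1, and the antioxidant element is drawn for Mt1 and Mt2A.

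Mt2A had a signal of 2967.6 with the low-fat diet and 1544.1 with the high-fat diet. The signal is the deposited intensity, on a linear scale, and the median over all gene probe sets was 15.7 for the low-fat diet and 14 for the high-fat one. These medians served as detection floors, since no detection calls were available. Mt2A was thus far above the floor on both arrays. The high-fat over low-fat ratio of Mt2A, on the log2 scale, was -0.94 as deposited and -0.83 after the median over measured probe sets had been subtracted (centring), which is 1.77-fold lower. Probe sets count as measured here if the average of their log2 signals was no lower than the average of both log2 floors, which kept 7864 probe sets and 6012 genes.

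Mt1 had a signal of 26.4 with the low-fat diet and 11.9 with the high-fat diet. The first was 1.68 times the floor and the second lay below the floor. The centred log2 ratio was -1.03, or 2.05-fold lower, and against the high-fat floor the difference is at least 1.74-fold. This Mt1 probe set was therefore dim on both arrays, and the Mt1 ratio is the less certain of the pair.

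A further probe set lists Mt1 together with Mt1f, a gene placed on chromosome X in the reference table, and Ttr, the gene of the plasma carrier transthyretin. It is outside the rule and cannot be assigned to 1 gene. Its signal was 3516.4 with the low-fat and 2519.8 with the high-fat diet, a centred log2 ratio of -0.36 or 1.29-fold lower. This was lower on the high-fat array as well, by a smaller ratio than either member. The probe set with the Ttr symbol alone went from 4553.4 to 4482.8, a centred log2 ratio of 0.09. Mt3 was under the floor on both arrays, at 2.3 and 1.2, and no fold is given for it. Mt4 was not analysed here, since no probe set carried its symbol alone. The reference table also lists 4 metallothionein pseudogenes, and probe sets of so similar a family cannot be assigned to 1 member with certainty. The name of the Mt1 probe set ends in _a_at, a class that can match several transcripts.

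**Figure D2:**
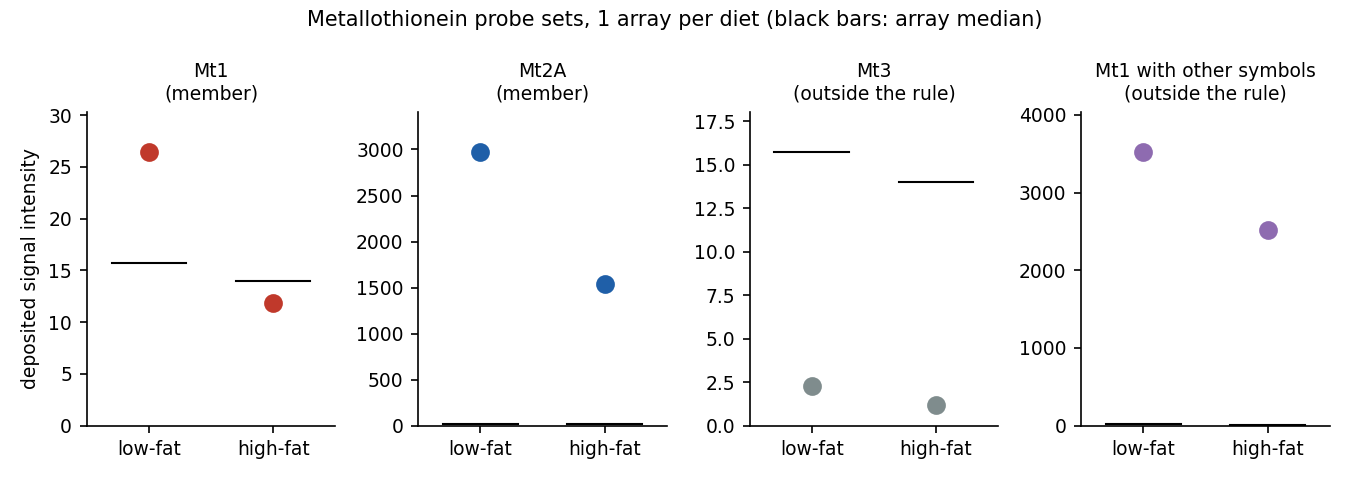
Deposited signal intensity of 4 metallothionein probe sets on the low-fat and the high-fat array, 1 array each, with the array medians (15.7 and 14) as black bars. Each panel has its own axis from 0, since signals of different probe sets are not comparable. The high-fat point is the lower one in all 4, with Mt1 crossing its floor and Mt3 under it throughout. Before centring 4002 of 6012 measured genes were also lower, and both members were picked for falling, so nothing is read from this count.

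The spread of the ratio depended strongly on signal, and the members sit at opposite ends. Mt1 was in the dimmest bin when measured probe sets were split by signal into 10 bins of equal size, where the robust SD of the centred log2 ratio was 0.487, and Mt2A was in the brightest, where it was 0.171. Mt2A had the 4th lowest ratio of 787 probe sets in its bin. The 3 below it belonged to Por, the reductase that supplies electrons to cytochromes P450 (-1.05), and to Got1 and Gpt, both aminotransferases (-0.98 and -0.85), which are named here after their values were seen. In the bin of Mt1, 24 of 787 probe sets lay 2-fold or more below 0 after centring, against 1 of 787 in the bin of Mt2A.

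Across all measured genes 0.865% were lower by 2-fold or more with the high-fat diet and 5.44% were at least 1.5-fold lower. Mt2A passed 1.5-fold and did not pass 2-fold. For Mt1 neither is said, since its high-fat signal was under the floor. Its 1.74-fold holds only against that floor, and its ratio was -0.24 with a pseudocount of 50. Nothing is read from these counts, as the members were chosen on the same contrast. Over all measured probe sets Mt2A had the 150th lowest ratio of 7864, and Mt1 is given no rank because its high-fat signal was under the floor.

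**Figure D3:**
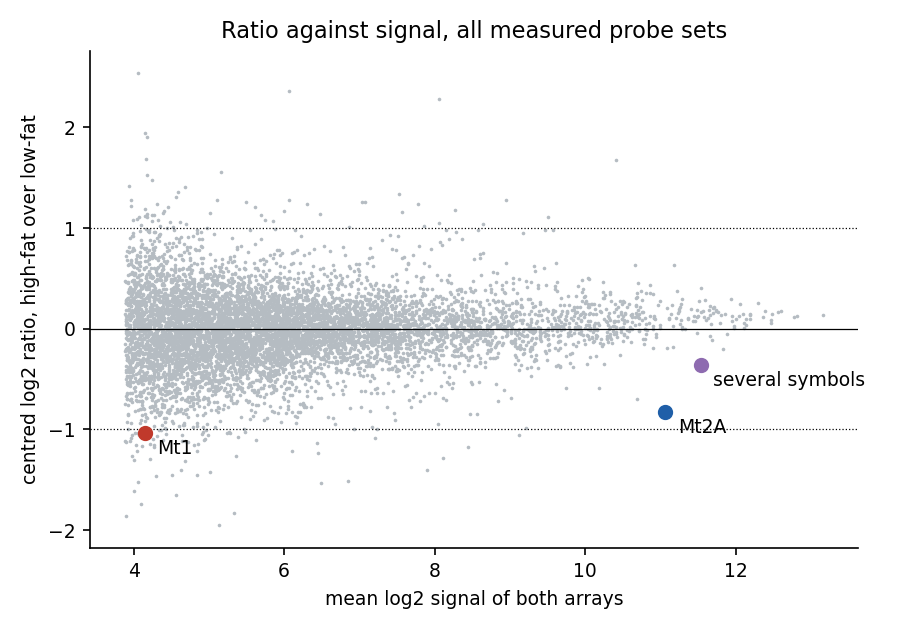
High-fat over low-fat ratio, centred and on the log2 scale, against mean log2 signal for 7864 measured probe sets (grey), with dotted lines at 2-fold. Mt1 (-1.03, with its high-fat signal under the floor) lies within the wide cloud of dim probe sets, Mt2A (-0.83) lies below the narrow cloud of bright ones, and the probe set with several symbols (-0.36) lies at its lower edge.

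Genes with the pattern most like Mt2A were sought among those at or above the floor on both arrays and within 1 log2 unit of its mean signal, by the distance between centred log2 ratios over the 2 arrays, and 178 genes were candidates. The nearest was Scd, the stearoyl-CoA desaturase, which went from 2190.7 to 1244.1 with a ratio of -0.70, a distance of 0.13. The next were the sterol 27-hydroxylase gene Cyp27a1 (-0.35), the ribosomal protein gene Rpl35 (-0.28), Dbi, the acyl-CoA binding protein (-0.26), and the mitochondrial gene COX1 (-0.20), at distances of 0.48 to 0.62. Mt2A thus had 1 near neighbour within that window of signal. Gpt (-0.85), in the same signal bin but dimmer than the window allows, was nearer in ratio than Scd. No nearest genes are given for Mt1, whose ratio is a bound.

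Of 23 genes listed as sensing or moving zinc, 18 had a probe set and 14 were measured, 8 lower and 6 higher on the high-fat array. None was past 1.5-fold, where 5.44% of all measured genes were lower and 4.22% higher. Their median centred log2 ratio was -0.07, against 0.00 over all measured genes. The median was -0.19 without centring, where 10 were lower and 4 higher, against 4002 and 1996 of the 6012 measured genes. With the floor at the 75th percentile the zinc median turned to 0.02. Mtf1, the metal-responsive factor, went from 53.3 to 34.2 (-0.52), while its second probe set was under the floor on both arrays. Slc30a1, the plasma membrane zinc exporter and a known target of MTF-1, went from 24.6 to 18.7 (-0.28), also close to the floor. The importer genes went both ways. Slc39a4, the importer of dietary zinc, went from 91.4 to 63.5 (-0.41) and Slc39a11 from 37.9 to 25.1 (-0.48), both lower. Slc39a14, a liver importer of zinc and iron known to respond to interleukin-6, went from 291.3 to 322.1 (0.26), and Slc39a13 from 17.9 to 24 (0.54), close to the floor. None of these 6 ratios changed sign with the scaling.

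Copper genes were centred near 0, with a median of 0.02 over 9 measured members, 5 higher and 4 lower. Without centring the median was -0.09 and the split 4 higher and 5 lower. Slc31a2, a copper transporter gene, was below the low-fat floor (14.3 against 27.9) and at least 1.93-fold higher. The other 8 were within 1.5-fold. Atox1, the chaperone that hands copper to the copper pumps, went from 448.4 to 339.1 (-0.29). Atp7b, the pump that exports copper to bile, went from 17.1 to 19 (0.27), close to the floor, and its other probe set was under the floor on both arrays. Cp, the copper-carrying plasma oxidase ceruloplasmin, went from 1762.5 to 2065 (0.35), with another probe set at 0.30 and 1 more on the other side at -0.87.

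Glucocorticoid response genes went both ways, with differences past 1.5-fold on each side. Of 14 measured members 8 were lower and 6 higher, with a median of -0.02. Without centring 11 were lower and 3 higher, against 4002 and 1996 of the 6012 measured genes. With quantile normalization and with loess 10 were lower and 4 higher. Fkbp5, a chaperone of the glucocorticoid receptor that the receptor induces, went from 133.6 to 56.1 (-1.14) and was the 1 member past 2-fold. This list, like the others, was chosen with earlier results of these data known, so counts within lists are description only. Those at least 1.5-fold lower were 5 of 14, against 5.44% of all measured genes. Besides Fkbp5 they were the clock gene Per1 (37.9 to 21.6, -0.69), Angptl4, an inhibitor of lipoprotein lipase (306.1 to 177.3, -0.67), and Zfp36 and Dusp1, which dampen inflammatory and kinase signals (-0.65 and -0.59). For Dusp1 a dimmer probe set gave -0.22. Sgk1, a kinase induced by the receptor, was higher, from 56.6 to 99.1 (0.92). Nr3c1, the receptor itself, went from 74.6 to 65.5 (-0.07).

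Genes of the interleukin-6 pathway gave a split that depended on the scaling. Of 12 measured members 9 were higher and 3 lower, and the median was 0.19, or 0.07 without centring, where 8 were higher and 4 lower. With loess 7 were higher and 5 lower, with quantile normalization 7 were higher, 3 lower and 2 at 0, the last with a median of 0.05. All measured genes split into 3004 higher and 3008 lower, and into 1996 and 4002 without centring. Stat3, the transcription factor of the pathway, went from 130.9 to 153.3 (0.34), with 0.43 on its second probe set. Il6r, the receptor's binding chain, was lower, from 201 to 140.6 (-0.40). The acute phase genes A2m and Lcn2 were the 2 members at least 1.5-fold higher, which 4.22% of all measured genes were, and both also passed 2-fold, as 0.848% of genes did. A2m, a protease inhibitor, went from 36.4 to 73.3 (1.13) and Lcn2, which binds bacterial iron carriers, from 16.9 to 31.4 (1.01, and 0.89 without centring), near the floor. Hamp, the iron hormone hepcidin, went from 2696.3 to 3284.8 (0.40).

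Of 11 measured oxidant and metal stress genes 6 were higher and 5 lower, and the median was 0.05. None was past 1.5-fold, where 5.44% of all measured genes were lower and 4.22% higher. Without centring 3 were higher, 7 lower and 1 at 0, with a median of -0.07, against 1996 higher and 4002 lower of the 6012 measured genes. Nfe2l2, the factor Nrf2 that binds antioxidant elements, went from 94.2 to 115.2 (0.41). Among its targets, Nqo1, a quinone reductase, and Gclm, a subunit of the enzyme that starts glutathione synthesis, were at 0.32 and 0.28. On the same list Gclc, Gsr and Srxn1 were at -0.08, -0.11 and -0.07, and Txnrd1 was at 0.08. Hmox1, the haem oxygenase that metals and oxidants induce, went from 55.8 to 51.4, a centred ratio of -0.002 that changed sign with the scaling. Sqstm1, an autophagy receptor, was at -0.21, and at 0.18 on a second measured probe set.

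**Figure D4:**
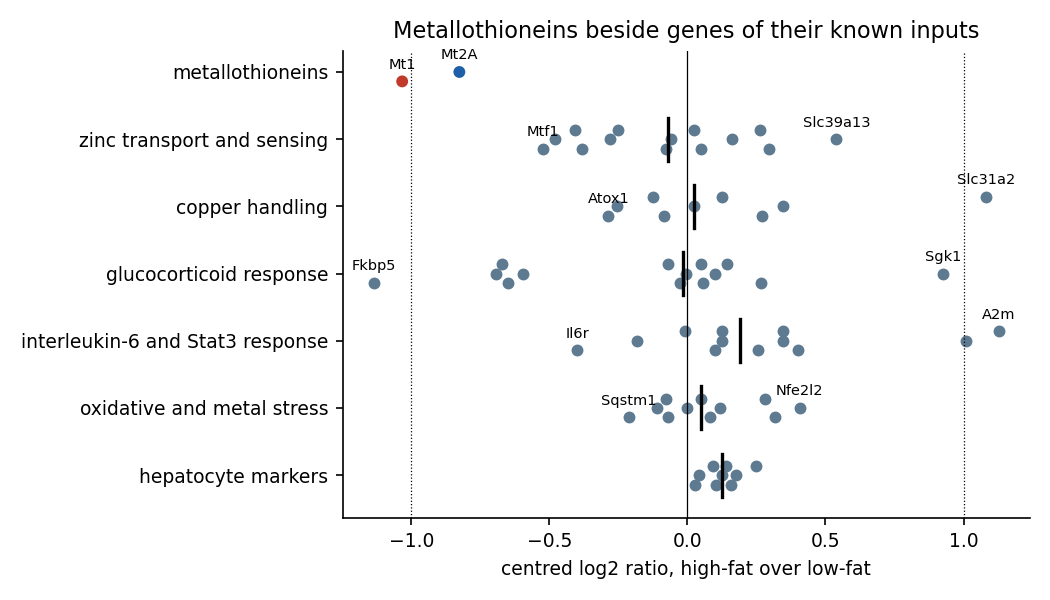
High-fat over low-fat ratio, centred and on the log2 scale, for Mt1 (-1.03), Mt2A (-0.83) and each measured gene of 5 lists tied to metallothionein regulation, with hepatocyte markers below. Each point is 1 gene, black bars are list medians and dotted lines mark 2-fold. Fkbp5 (-1.14) has the lowest ratio of the listed genes, and the Mt1 point rests on a high-fat signal under the floor.

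Other genes with several metal response element cores went both ways. In 5119 measured genes with a promoter entry the median centred ratio was 0.00. Leaving out both members, 117 measured genes held 3 or more cores, of which 50 were lower and 67 higher, with a median of 0.02. Of these 6.84% were at least 1.5-fold lower, against 5.2% of the 5119, and 3.42% at least 1.5-fold higher, against 4.38%. The zinc importer gene Slc39a7, with 4 cores as in Mt2A, went from 113.1 to 106.1, a ratio of 0.02 that was -0.09 without centring.

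The tissue label was checked with marker genes. All 9 measured hepatocyte markers were bright, among them Alb, the albumin gene, at 9119.2 and 9255.6, and their centred ratios lay between 0.03 and 0.25. Without centring 5 of them were higher and 4 lower, with a median of 0.01. Of 7 measured Kupffer cell and macrophage markers 4 were higher and 3 lower, with a median of 0.01. The 3 measured endothelial markers were at -0.03 to 0.33, and Epcam, the 1 measured bile duct marker, was at -0.17. Red cell, fat and pancreas genes were at -0.15 to 0.19, and the kidney genes Umod, Kap and Slc34a1 were under the floor. Of 8 stellate cell markers 4 were measured and all 4 were lower, as were 3008 of 6012 measured genes. The median of these 4 markers was -0.43. Their summed signal was 376.1 with the low-fat and 267.8 with the high-fat diet. They were Col1a2, whose high-fat signal was under its floor and which was at least 1.97-fold lower but at 0.07 on its second probe set, Vim (-0.59), Lrat (-0.28) and Col3a1 (-0.25). Des, Acta2, Col1a1 and Pdgfrb were under the floor, and no listed marker was at 0. The part of stellate cells in the metallothionein values was not tested, and in bulk RNA fewer cells of a type cannot be told apart from less RNA per cell.

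The ratios of both members stayed below 0 under every setting that gave a value. With 1 probe set each, the median over probe sets could not change them. Another floor, where it kept the probe set, moved only the centring. Mt2A ranged from -0.96 with quantile normalization to -0.81 with the floor at the 25th percentile of each array, over 8 settings. Mt1 ranged from -1.15 without centring to -0.24 with a pseudocount of 50, over 6 settings. The pseudocount exceeds both of its signals.

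**Figure D5:**
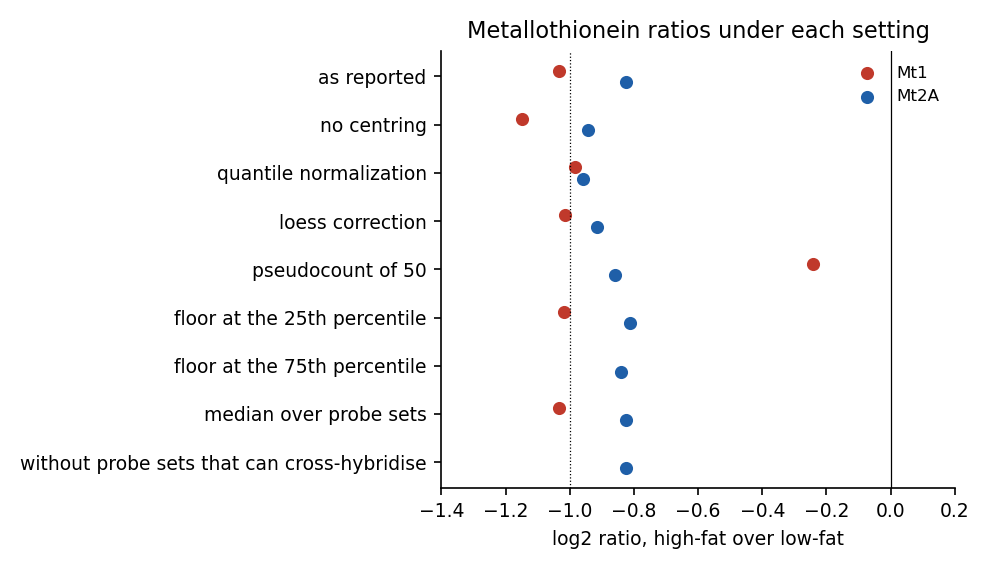
High-fat over low-fat ratio, on the log2 scale, for Mt1 (red) and Mt2A (blue) as reported and under 8 other settings, with the dotted line at 2-fold lower. Mt2A keeps between -0.96 and -0.81, and Mt1 moves to -0.24 with the pseudocount and has no point in the 2 settings where its probe set was not kept.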

How the data were processed

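Rat liver total RNA had been hybridised to 1 array per diet. The deposited table gives 1 signal intensity per probe set and array. The sources used here do not give the authors' background correction, summarisation or scaling, and the linear scale was read from the values. Diets came from the sample titles. Of 15923 probe sets, 57 controls were left out. The platform annotation gave 12783 probe sets 1 symbol, 312 several and 2771 none. A 0 on either array removed 4 probe sets, log2 was taken with no pseudocount, and each ratio had the median over measured probe sets (-0.117) subtracted. A gene with several probe sets is given by the brightest. Robust SD is the scaled median absolute deviation.

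Members and lists were chosen with earlier results of these data known. Named genes are in each list the 4 measured members of largest absolute ratio, plus Mtf1, Slc30a1, Slc39a14, Nr3c1, Il6r, Stat3, Nfe2l2, Hmox1 and Nqo1, and the 5 nearest in pattern to each member (not given for Mt1, whose high-fat signal was under the floor). Dusp1, Zfp36, Gclc, Gsr, Srxn1, Txnrd1, the marker genes and the promoter counts over other genes were added after values were seen. Hspa1b was matched through a synonym to Hspa1a. Promoters are RefSeq's, GRCr8, and motif counts use the 250 bases before the start. The centring and the ratios were tested on simulated data, while the floor bounds, the lists and the motif counts were not. Alternatives were no centring, quantile normalization, loess, a pseudocount of 50, 2 other floors, the median over probe sets, and leaving out probe sets with names ending in _s_at, _x_at or _a_at. Python 3.11.15, numpy 2.4.6, pandas 2.3.3 and statsmodels 0.14.6 were used.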

Additional observations from a re-analysis of the deposited data

How the results depend on the processing

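Values were compared with the robust SD of probe sets of like signal for the members, and with the robust SD over all measured genes divided by the root of the list size for list medians. All 8 settings for Mt2A and 5 of 6 for Mt1 stayed within it, though several of these could move only the centring or nothing. With a pseudocount of 50 Mt1 was at -0.24, since 50 exceeds both of its signals. It had no value with the floor at the 75th percentile or without probe sets that can cross-hybridise, where its probe set was not kept. Probe sets at least 2-fold lower numbered 71, and 111 without centring, 5 with the pseudocount, 504 with the floor at the 25th percentile and 12 at the 75th. Without centring, which shifts every ratio by -0.117, list medians were -0.19 (zinc), -0.0924 (copper), -0.13 (glucocorticoid), 0.0745 (interleukin-6) and -0.0662 (oxidative and metal stress). At the 75th percentile floor the zinc median was 0.0233 and the copper median -0.10, over fewer genes. The interleukin-6 median was 0.0466 with quantile normalization, 0.0803 with loess, 0.27 with the median over probe sets and 0.30 without probe sets that can cross-hybridise, and it stayed above 0 in all 8. The cause of these moves was not tested beyond the construction named. No paired analysis was possible because each diet has 1 array. Depth is set by signal over the floor, which Mt1 did not reach on the high-fat array.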
